A study of Mus musculus with 464 samples.

Results

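The genes described here are 46 DNA replication and S phase genes, taken as a named group and present under those names among the 21973 genes of the deposited expression table. They were described across the single-cell columns, from here on called cells, that passed a filter of at least 2000 genes above 0 and a mitochondrial share of no more than 20%, which removed 6 columns. The cells come from R1, a line of mouse embryonic stem cells that was maintained with 15% Knockout serum replacement and 1000 U/ml of LIF, a cytokine that holds such cells in an undifferentiated state. Embryoid bodies were formed by a hanging drop step of 48 hours and then kept for 4 days in 0.5 mM retinoic acid, the dose as the labels state it. Every cell carries the same label, and no separate culture is named, so there is 1 sample and no untreated control. Capture on the Fluidigm C1 was followed by SMART-Seq V4 chemistry and Nextera XT libraries, a full-length method without molecular identifiers. All values are TPM, a share of a cell's transcripts corrected for gene length, so that levels can be compared between genes. TPM keeps no sequencing depth, and the number of genes above 0 in a cell stands in for it. Cells of 1 sample are not replicates, so no p-value is given.

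A cell copies its genome in S phase, and the genes that carry this out are transcribed mainly from late G1 onward. Before S phase, the origin recognition complex (Orc1 to Orc6) together with Cdc6 and Cdt1 loads the ring of Mcm2 to Mcm7 onto DNA, a step known as origin licensing, and geminin (Gmnn) blocks Cdt1 once licensing is over. Mcm10, Cdc45 and the GINS subunits turn the loaded ring into the active helicase. The polymerases then copy the strands, primed by Prim1 and Prim2 and held by the sliding clamp Pcna, which the Rfc proteins load. Tyms, Rrm1 and Rrm2 make deoxynucleotides, and Slbp, Nasp and the Chaf1 proteins supply and place histones behind the fork. E2F factors drive many of these genes. A neuron leaves the cell cycle for good when it forms from a dividing progenitor.

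The cells were divided by marker genes into states, and no replication gene was among the markers. A state is a range of a marker count and not a cell type. A marker was counted at 10 TPM or more, and each of 4 lists held 10 markers. Endoderm cells had at least 5 markers of the list Gata4, Gata6, Sox17, Sox7, Foxa2, Dab2, Cubn, Krt8, Krt18 and Lama1. The remaining cells were neuron cells with at least 6 of Nefl, Nefm, Stmn2, Stmn3, Mapt, Elavl3, Elavl4, Dcx, Gap43 and Ina, otherwise proneural cells with at least 3 of a proneural list that includes Neurog1, Neurog2, Neurod1, Insm1 and Dll3, otherwise progenitor cells with at least 4 of Sox1, Sox2, Sox3, Pax6, Nes, Hes5, Fabp7, Cdh2, Msi1 and Notch1. Progenitor cells made up 25.8% of the kept cells (68 in 1 set of columns and 50 in the other), proneural cells 18.1% (83 cells), neuron cells 29% (60 and 73) and endoderm cells 15.3% (70 cells). A further 45 cells met the endoderm bound and also a neural one, and 9 were in no state. The neural states grade into one another: the median neuron cell held 9 neuron markers but also 5 proneural and 5 progenitor markers, and 69 neuron cells had a marker count at a bound or 1 below it, against 9 of the 70 endoderm cells. Endoderm cells had a median of 8 endoderm markers and 0 of each neural list. The rule sets part of this and of their few cells near a bound. It places cells that met the endoderm bound and a neural one in the state with both kinds of marker. Of those 45 cells, 24 had a marker count at a bound or 1 below it. The cells with both kinds of marker had the highest median number of genes above 0, 8104 against 6144 to 6981 in the other 4 states named here. Doublets were not called, and their part in that state was not tested. Markers of blood, endothelium and mesoderm summed to a median of 0 TPM in every state. Of 6 pluripotency genes, Pou5f1, Nanog, Esrrb, Tdgf1 and Utf1 were detected in under 5% of the cells of each. Zfp42, the other gene of that list, was at or above this share in all states but the unassigned cells. The list summed to a median of 27.9 TPM in endoderm cells and 2.59 TPM in cells with both kinds of marker.

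The columns fall into 2 sets by name, called set 1 and set 2. Between the sets, 55 pairs of columns were near copies (r of 0.95 to 0.99 across genes, against 0.92 for the closest of all other pairs) and were taken as repeat measurements of the same cells. Counts over distinct cells and within each set are given below where they bear on a result. Of the 46 genes, 10 overlap another protein-coding gene in the RefSeq annotation, such as Mcm7 with Ap4m1 and Orc1 with Prpf38a. Whether the counting used strand is not given in the sources used here, so reads of such neighbours cannot be told apart. Pcna has a near-identical copy, Pcna-ps2, which was listed at 47.1% to 51.3% of the Pcna mean in each state, so the Pcna level is uncertain by that share.

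The promoters of these genes often carry the letters that E2F factors read. RefSeq promoter windows of GRCm38.p6, which is the mm10 build, run from 250 bases before to 50 bases after a transcript start and were found for 35 of the 46 genes (37 windows). Either TTTCCCGC, TTTGGCGC, TTTGCCGC or TTTCGCGC was present on 1 or the other strand in 14 of these windows, or 37.8%, compared with 2.26% of all 32851 windows of that length. CCAAT, another common promoter element, was present on either strand in 67.6% of the replication windows and in 37.4% of all windows. It was not particular to this group, since 88.2% of the windows of the G2 and M phase genes described further on held it. Overlapping matches were each counted, and a match describes the letters and does not show a bound factor. Cdt1, Clspn, Mcm3, Mcm7, Pola1 and Rfc3 have E2F letters but did not pass the size rule described further on in neuron cells. Conversely, Chaf1a, Mcm10 and Rrm1 passed it with no E2F letters in their windows. The stretches below belong to 7 of the 8 genes that have E2F letters and passed that rule. They are printed with the E2F letters in capitals, 5′ to 3′ on the strand of the gene.
Mcm6, chr1:128359706-128359845, minus strand, upstream of the gene: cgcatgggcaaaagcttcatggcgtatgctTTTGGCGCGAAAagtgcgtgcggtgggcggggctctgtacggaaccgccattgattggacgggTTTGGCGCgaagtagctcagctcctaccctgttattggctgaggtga
Gins3, chr8:95633488-95633558, plus strand, upstream of the gene: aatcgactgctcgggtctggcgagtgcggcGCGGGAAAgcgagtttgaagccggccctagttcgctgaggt
Mcm5, chr8:75109347-75109376, plus strand: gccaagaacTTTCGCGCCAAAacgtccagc
Orc1, chr4:108579416-108579445, plus strand: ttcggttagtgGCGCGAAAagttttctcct
Cdc6, chr11:98908002-98908031, plus strand: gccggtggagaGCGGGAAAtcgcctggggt
Hells, chr19:38930917-38930946, plus strand: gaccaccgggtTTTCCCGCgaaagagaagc
Dtl, chr1:191575534-191575563, minus strand: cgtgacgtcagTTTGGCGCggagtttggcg
Mcm6 and Mcm5 hold more than 1 match, and in both a pair of them overlaps head to head (TTTGGCGCGAAA and TTTCGCGCCAAA). The first match lies 8 bases before the start in Dtl, 27 in Orc1, 41 in Gins3, 62 in Hells and 110 in Mcm6, and farther upstream in Cdc6 and Mcm5. Pcna and Slbp, the pair of genes that varied most closely together among progenitor cells, had none of the E2F letters in their windows. Their windows hold CCAAT on 1 or the other strand, in capitals here.
Pcna, chr2:132253181-132253297, minus strand, upstream of the gene: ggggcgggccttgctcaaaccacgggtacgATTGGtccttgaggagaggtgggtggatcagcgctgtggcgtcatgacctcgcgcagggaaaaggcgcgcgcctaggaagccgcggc
Slbp, chr5:33652575-33652712, minus strand, upstream of the gene: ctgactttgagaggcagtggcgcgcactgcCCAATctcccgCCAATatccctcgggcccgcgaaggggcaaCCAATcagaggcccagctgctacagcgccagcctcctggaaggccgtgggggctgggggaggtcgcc

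Summed over the 46 genes, the replication program was largest in progenitor cells and smallest in endoderm cells. The sum was 1210 TPM in the lowest, 5570 in the median and 14422 in the highest progenitor cell. In proneural cells these values were 593, 4770 and 22013 TPM, in neuron cells 362.8, 2957 and 17332 TPM, and in endoderm cells 785, 1968 and 7511 TPM. The cells with both endoderm and neural markers ran from 952 through 2705 to 10189 TPM. The ranges of all states overlap, and the highest endoderm cell lies above the median progenitor cell. A shift of the bulk of cells is nevertheless visible: the lower quartile of progenitor cells was 3954 TPM, and 45.8% of proneural, 66.9% of neuron and 80% of endoderm cells lay below it. The exact 95% Clopper-Pearson intervals, which cover counting error only, were 34.8% to 57.1%, 58.2% to 74.8% and 68.7% to 88.6%. They count near-copy columns as separate cells and are to that extent too narrow. Over distinct cells the shares were 47.8%, 68% and 80.6%.

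**Figure D1:**
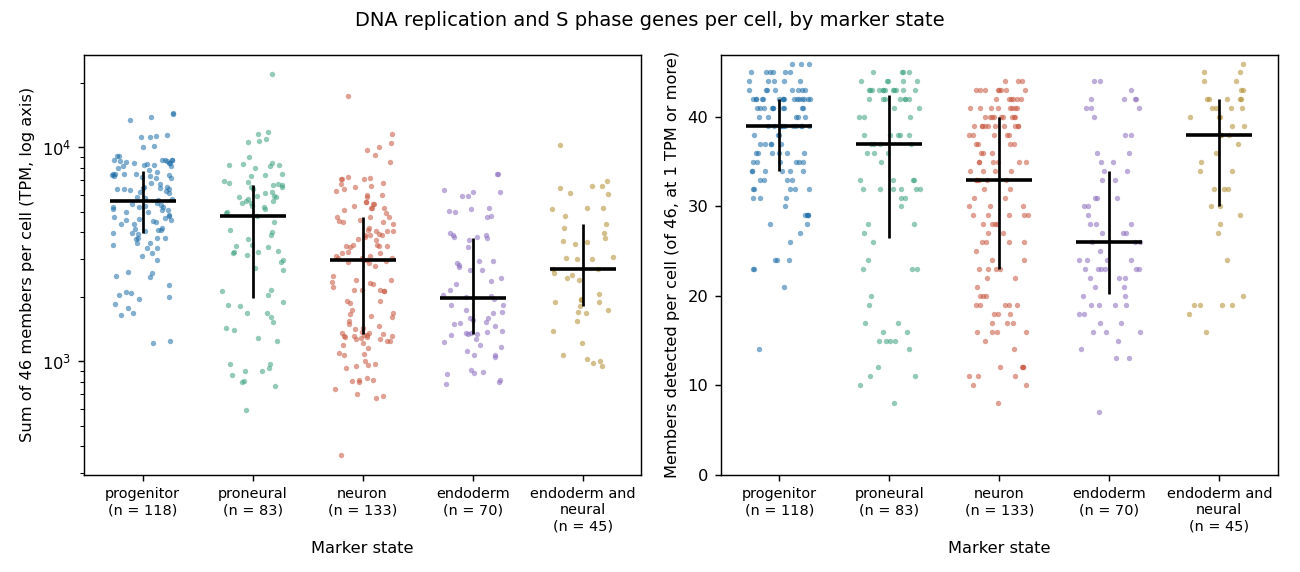
The left panel plots the summed TPM of the 46 replication genes (log axis) and the right panel the number of them detected at 1 TPM or more, with 1 point per cell by marker state, a horizontal bar at the median and a vertical bar from the lower to the upper quartile. The median sum goes from 5570 TPM in progenitor to 1968 TPM in endoderm cells while every state keeps cells with high sums.

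The number of replication genes with 1 TPM or more in a cell followed a similar order. Its median was 39 of 46 in progenitor, 37 in proneural, 33 in neuron and 26 in endoderm cells. It was 38 in cells with both endoderm and neural markers, the state with the most genes above 0. Neuron cells had more genes above 0 than progenitor cells (medians 6981 and 6620), so their lower count of replication genes was not accompanied by a lower count of all genes. Endoderm cells had fewer genes above 0 (median 6144), and the part of this in their count of 26 was not tested. The summed level of Mcm2 to Mcm7 alone had medians of 445.8 TPM in progenitor, 362.15 in proneural, 252.1 in neuron and 186.98 TPM in endoderm cells. A total of 20 G2 and M phase genes had medians of 3825, 2513, 1071 and 272.9 TPM in the same order of states.

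Among neural cells, the level of the replication genes went down with the number of neuron markers. Cells with fewer than 5 endoderm markers were binned by that number after the data had been seen. The median sum was 6198 TPM in 44 cells with 0 to 1 neuron marker, 5251 in the largest bin with 2 to 3, and 3924 in 53 cells with 4 to 5. It stayed near this level in 47 cells with 6 to 7 markers, at 4065 TPM, and in 18 cells with 8, at 3905 TPM. It was 2127 TPM in 33 cells with 9 and 1490 TPM in 35 cells with all 10 neuron markers. The cells with 9 or 10 markers thus had lower sums than the other neuron cells, and 78.8% and 88.6% of them lay below the progenitor quartile of 3954 TPM. The median number of genes above 0 went the other way, from 5792 in the first bin to 7358 in the last. In column set 1 the sum went from 5822 to 1331 TPM between the first and last bins, and in set 2 from 6440 to 1628 TPM. The bins between differed by set. With 4 to 5, 6 to 7 and 8 markers the medians were 3244, 3596 and 3033 TPM in set 1. In set 2 they were 5607, 4450 and 5548 TPM, so the similar medians over 4 to 8 markers are those of both sets pooled. The bin with 8 markers held 9 cells of each set.

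**Figure D2:**
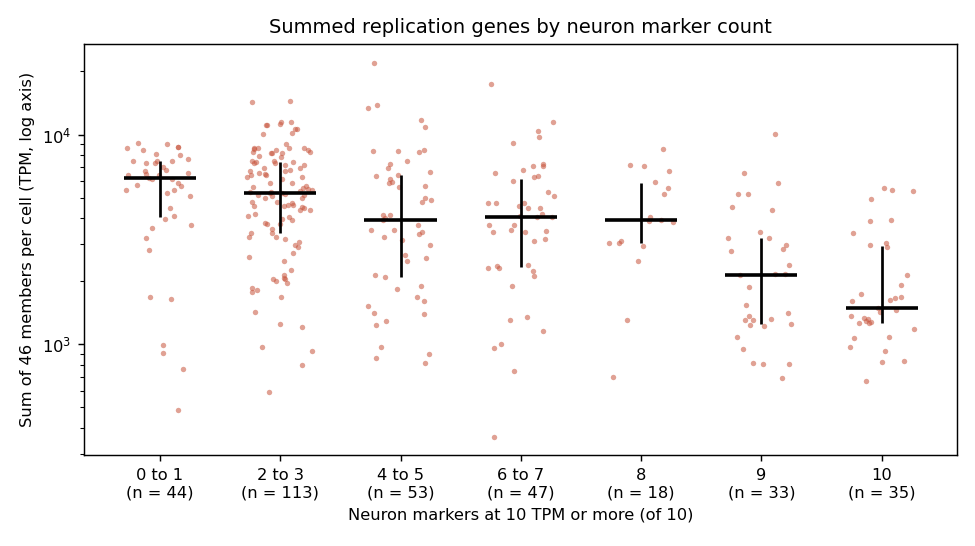
Each point is a cell with fewer than 5 endoderm markers, placed by its number of neuron markers (horizontal) and its summed TPM of the 46 replication genes (vertical, log axis), with the median and the quartiles in black. With both column sets pooled, the medians lie between 3905 and 4065 TPM over 4 to 8 markers and at 2127 and 1490 TPM at 9 and 10 markers.

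Single genes were compared between states by a rule of size in place of a test. A gene was called lower or higher when its mean TPM differed at least 2-fold, it was detected in at least 10 kept cells, and the exact 95% intervals of the shares of cells with 1 TPM or more did not overlap. All 46 replication genes passed the minimum of 10 cells, as did 13756 genes of the table in all. In neuron against progenitor cells, 13 of the 46 were called lower and none higher, where 2.06% of all genes tested were called lower and 7.92% higher. The 13 were the helicase genes Mcm5, Mcm6, Mcm10 and Gins3, the licensing genes Orc1 and Cdc6, and Dtl, which limits licensing. The others were the polymerase subunits Pold1 and Pole, and Rrm1, Exo1, Chaf1a and Hells. The mean of every one of the 46 was lower in neuron cells, with a median log2 fold of -0.84, while the median over all genes was 0.06. The folds ran from -1.93 for Ung to -0.41 for Cdt1 on the log2 scale. The call count was 14 over distinct cells, 10 in column set 1 and 6 in set 2. Of all genes, 2.13%, 1.41% and 0.769% were called lower in the same settings. With neuron cells restricted to the 68 with at least 9 neuron markers, a choice made after the data were seen, 28 of the 46 were called lower and the median log2 fold was -1.57. In that setting 4.00% of all genes were called lower.

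In proneural against progenitor cells, none of the 46 was called in either direction, where 0.327% of all genes were called lower and 1.20% higher. The means of 45 were lower in proneural cells and that of E2f1 was higher by 0.06 on the log2 scale. The median log2 fold was -0.38, against -0.02 over all genes. Ung alone was past the 2-fold bound (log2 fold -1.10), and its intervals of the detected share overlapped. Of all genes tested, 9.77% had means at least 2-fold lower. Conversely, 7 genes, among them Mcm6, Gmnn, Rrm1 and Hells, were detected in a lower share of proneural cells with intervals apart, but their means were within the 2-fold bound. The share of all genes with intervals apart was not counted, so these 7 have no background to be read against.

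In endoderm against progenitor cells, 27 of the 46 were called lower and none higher, where 15.0% of all genes were called lower and 11.4% higher. The median log2 fold was -1.33, against -0.25 over all genes. Means at least 2-fold lower were found for 33 of the 46 and for 28.7% of all genes tested. Rrm2 had the lowest log2 fold, -2.62, and Orc1 alone had a higher mean, by 0.48 on the log2 scale without a call. The call count was 27 over distinct cells, 10 in set 1 and 18 in set 2. This comparison uses the same progenitor cells as the neuron comparison, so the values of both are given side by side below.

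**Figure D3:**
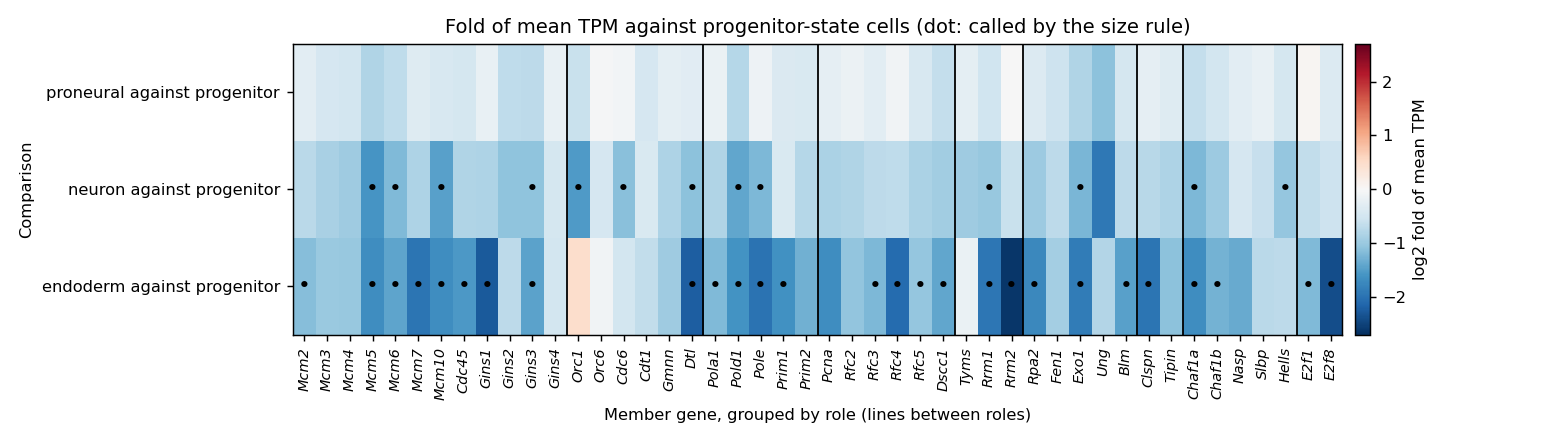
Colour gives the log2 fold of mean TPM of each of the 46 genes (columns, grouped by role) in proneural, neuron and endoderm cells against the same progenitor cells (rows), and dots mark genes called by the size rule. Blue, a lower mean, fills the neuron row with 13 dots and the endoderm row with 27, and the proneural row has no dot.

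The counts by role that follow stand against 2.06% of all genes called lower in neuron cells and 15.0% in endoderm cells. Of 12 helicase genes, 4 were called lower in neuron cells and 8 in endoderm cells. Mcm5, a subunit of the ring, had a mean of 73.8 TPM in progenitor cells (lowest 0, median 52.2, highest 472), 42 in proneural cells (0, 25.97 and 209.05) and 24.4 in neuron cells (0, 10.04 and 145.35). In endoderm cells it was 23.1 TPM (0, 4.04 and 136.96), and in cells with both kinds of marker 32.7 TPM. All these ranges overlap from 0 upward, and the difference lies in the bulk of the cells. Mcm5 was detected in 86.4% of progenitor cells (95% interval 78.9% to 92%) and in 60.9% of neuron cells (52.1% to 69.2%), a fold of 0.331 in mean TPM. It was the only one of the 13 called lower in neuron cells under each of the 16 other settings tried. The setting without a filter on genes could not change its call.

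The means of the other ring subunits lay closer to progenitor cells in neuron cells than that of Mcm5. Mean Mcm6 was 118.9 TPM in progenitor, 74.2 in proneural, 51.7 in neuron and 44.2 in endoderm cells, and it was called lower in the last pair of states. Mcm2 went from 56.7 to 46.4, 34.4 and 25.7 TPM over the same states, Mcm3 from 75.6 to 55, 41.2 and 37.9, and Mcm4 from 60.9 to 43, 31.4 and 29.9 TPM. Of these 3, Mcm2 was called lower in endoderm cells. Mcm7 was the most abundant ring gene and set the states apart in another way, with 189.2 TPM in progenitor, 149.1 in proneural, 106.6 in neuron and 48.3 in endoderm cells. It was detected in 100% of progenitor, 94% of neuron and 77.1% of endoderm cells, and only the endoderm mean passed the rule (fold 0.255). Mcm7 shares its place on chromosome 5 with Ap4m1, and reads of the pair cannot be told apart.

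The factors that activate the ring were low or uneven. Mean Cdc45 was 71, 51.3, 40.4 and 24.1 TPM in progenitor, proneural, neuron and endoderm cells, and 72%, 61.4%, 58.6% and 35.7% of these cells had 1 TPM or more. Mcm10, which joins the ring at origins, went from 17.2 TPM in progenitor to 6.19 in neuron and 5.36 in endoderm cells. The GINS subunits act as 1 complex, yet their folds in neuron cells ranged from 0.474 for Gins2 and Gins3 to 0.721 for Gins4, and in endoderm cells from 0.207 for Gins1 to 0.712 for Gins4. Gins4 stayed at 87.6 TPM in neuron and 86.4 in endoderm cells, against 121.4 in progenitor cells, and was detected in 90.2% and 87.1% of them.

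Of 6 genes that carry out or limit licensing, 3 were called lower in neuron cells and 1, Dtl, in endoderm cells. The latter is close to the 15.0% of all genes. Orc1, the largest subunit of the origin recognition complex, had the most divergent pattern of the group. Its mean was 10.6 TPM in progenitor cells (lowest 0, median 0, highest 134.1), 6.97 in proneural cells (0, 0 and 90.8), 3.68 in neuron cells (0, 0 and 52.6) and 14.8 in endoderm cells (0, 0.605 and 77.6). It was listed at 1 TPM or more in 39.8% of progenitor, 19.5% of neuron (13.2% to 27.3%) and 47.1% of endoderm cells (35.1% to 59.4%). Orc1 is a low gene, listed below 1 TPM in most cells of each neural state, and it overlaps Prpf38a on chromosome 4. Cdc6, the partner that joins Orc at origins, had means of 22.3, 21.3, 10.2 and 15.8 TPM in progenitor, proneural, neuron and endoderm cells. Its fold in neuron cells was 0.457, and 28.6% of them had 1 TPM or more against 49.2% of progenitor cells.

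Mean Cdt1 was 42.6 TPM in progenitor, 31.4 in proneural, 32.1 in neuron and 26.8 in endoderm cells, and its neuron fold was 0.752, or 0.705 without the highest neuron cell. Its inhibitor Gmnn had means of 350.4, 292.7, 197.5 and 179.8 TPM in the same states and a neuron fold of 0.564. Neither was called. Orc6 had 119.9 TPM in neuron and 152.99 in endoderm cells against 163.6 in progenitor cells. Dtl, part of the ubiquitin ligase that removes Cdt1 in S phase, went from 33 TPM in progenitor to 15.2 in neuron and 7.05 in endoderm cells and was called in both.

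Among polymerase and primase genes, 2 of 5 were called lower in neuron and 4 of 5 in endoderm cells. Pold1, the catalytic subunit of polymerase delta, had means of 21.3, 12.5, 8.05 and 7 TPM in progenitor, proneural, neuron and endoderm cells, and Pole, that of polymerase epsilon, 24.3, 22.2, 10.4 and 6.14 TPM. Prim1, the catalytic primase subunit, had means of 157.2, 120.2, 118.1 and 50.3 TPM. The neuron mean of Prim1 rests in part on 1 cell with 4938 TPM, the next highest having 640 TPM. Without that cell the neuron mean was 81.6 TPM and the fold 0.519 in place of 0.751.

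None of the 6 genes of the clamp and its loaders was called in neuron cells, and 4 were called lower in endoderm cells. Pcna, the sliding clamp, had a mean of 471 TPM in progenitor cells (lowest 6.23, median 410.1, highest 1539), 399.5 in proneural cells (0, 337.75 and 2760), 259.9 in neuron cells (0, 157.15 and 1513) and 146.99 in endoderm cells (0, 101.9 and 530). Between 95.7% and 100% of the cells of each state had it at 1 TPM or more, so the states differed in its level more than in its detection. Its fold was 0.552 in neuron and 0.312 in endoderm cells, and with Pcna-ps2 added the folds were 0.548 and 0.309. In neuron cells Pcna was within the 2-fold bound, and in endoderm cells, where it was past that bound, the intervals of its detected shares overlapped. Rfc4, a subunit of the clamp loader, had means of 342.6 TPM in progenitor, 213.2 in neuron and 81.3 in endoderm cells, a fold of 0.237 in the last.

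Nucleotide supply split by gene in endoderm cells. Rrm2, the small subunit of ribonucleotide reductase, had a mean of 266.7 TPM in progenitor cells (lowest 0, median 247.1, highest 1046), 264.3 in proneural cells (0, 178.65 and 1631), 175.6 in neuron cells (0, 95.8 and 1819) and 43.4 in endoderm cells (0, 2.92 and 297.6). The highest endoderm cell thus lay only slightly above the mean of progenitor cells. Rrm1, the large subunit, had means of 157.8, 109.1, 77.1 and 40.5 TPM and was called lower in neuron (fold 0.489) and endoderm cells (0.257). Tyms, which makes thymidylate, had means of 352.6, 294.7, 181.9 and 310 TPM, so that its endoderm fold was 0.879. Its median was 300.9 TPM in progenitor, 261.3 in proneural, 133.06 in neuron and 205.4 TPM in endoderm cells. Tyms was the most abundant of the 46 in endoderm cells, at 11.6% of their sum, against 5.91% in progenitor cells.

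**Figure D4:**
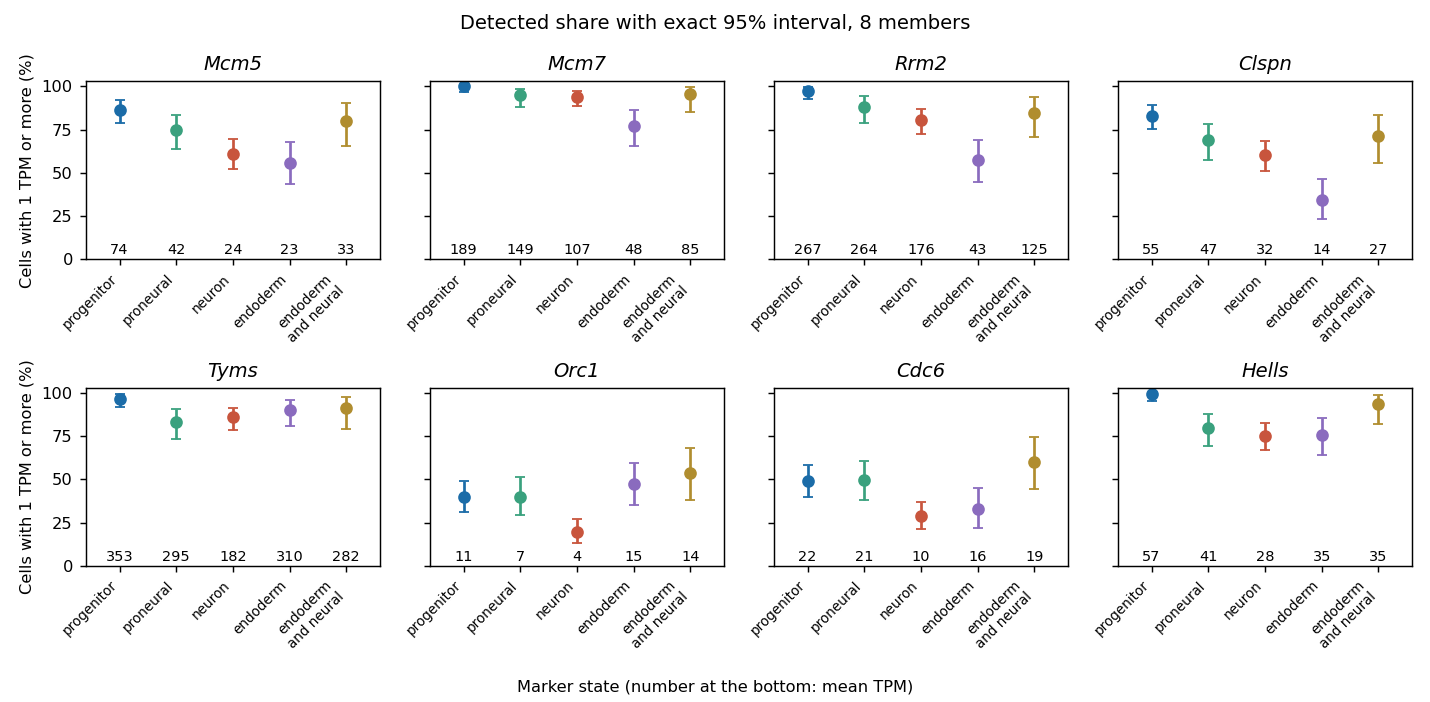
Points give the share of cells with 1 TPM or more (vertical, percent) for 8 of the genes in the 5 marker states, with exact 95% intervals, and the numbers at the bottom are mean TPM. Rrm2, Mcm7 and Clspn are lowest in endoderm cells, whereas Orc1 is lowest in neuron cells at 19.5%.

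Among the genes for single strands, flaps and repair, Exo1, an exonuclease, went from 83.9 TPM in progenitor to 35.5 in neuron and 22.6 in endoderm cells and was called in both. Rpa2, of the single-strand binding complex, had means of 148.4, 75 and 44.4 TPM in the same states and was called in endoderm cells. Ung, which removes uracil from DNA, had the lowest neuron fold of the group, 0.262, but this rests on 1.86 against 0.487 TPM and on detection in 18.6% and 8.27% of cells. Of the fork checkpoint genes, Clspn, the adaptor of the checkpoint kinase Chk1, had means of 54.7, 46.6, 32.4 and 13.9 TPM in progenitor, proneural, neuron and endoderm cells, and its partner in the fork complex Tipin had 630, 496, 353.9 and 293.3 TPM. Tipin was the most abundant replication gene in progenitor cells, at 10.6% of the sum.

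Of the chromatin genes, only Hells had a higher mean in endoderm than in neuron cells. Hells, a remodeller of the SNF2 family, was detected in 99.2% of progenitor cells, 79.5% of proneural, 75.2% of neuron and 75.7% of endoderm cells, with means of 57.4, 41.5, 27.7 and 35.1 TPM. Chaf1a, of the histone chaperone CAF-1, went from 21.5 TPM in progenitor to 9.22 in neuron and 6.72 in endoderm cells. Slbp, which binds the stem loop of histone transcripts, had means of 387.85, 335.9, 250.4 and 233.3 TPM over progenitor, proneural, neuron and endoderm cells, and Nasp, a histone chaperone, 203.7, 166.2, 148.4 and 78.7 TPM. The factor E2f1 had means of 9.52, 9.91, 6.01 and 4.2 TPM and E2f8, an atypical family member that represses, 9.46, 7.35, 6.42 and 1.79 TPM. Both factors were called lower in endoderm cells and not in neuron cells.

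Set directly against neuron cells, a comparison added after the data had been seen, endoderm cells had 5 replication genes called lower and 1 called higher. Over all genes, 19% were called lower and 10.6% higher, so both counts are below the background of these states. The genes called lower were Rrm2 (fold 0.247), Gins1 (0.366), Clspn (0.428), Mcm7 (0.453) and Dtl (0.463), and Orc1 was called higher at 4.01-fold. The median log2 fold over the 46 was -0.38 and over all genes -0.29. The lower calls numbered 2 over distinct cells, 0 in column set 1 and 6 in set 2, and Orc1 was not called in set 2. Against the 68 cells with at least 9 neuron markers, none was called in either direction, and the median log2 fold of the 46 was 0.13. Of all genes, 18.2% were called lower in that setting and 9.21% higher. The median sum of those 68 cells was 1620 TPM, below the 1968 TPM of endoderm cells. Of the genes without a call, Ung was 2.20-fold higher in endoderm than in neuron cells, at 1.07 against 0.487 TPM. Tyms was 1.70-fold and Cdc6 1.55-fold higher.

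Within progenitor cells most pairs of the replication genes had a positive r. Pairs of other genes were not taken for comparison, so this is not shown to be particular to the group. Over the 1035 pairs of the 46 genes the median Pearson r of log2(TPM + 1) was 0.29, and 1005 pairs were above 0. The median was 0.33 in column set 1 and 0.26 in set 2. The cells share 1 sample, and the mean replication level had an r of 0.24 with the number of genes above 0, and its part in these r values was not tested. Pcna and Slbp were the closest pair at r = 0.79 (0.76 and 0.84 in the sets), followed by Pcna with Rpa2 at 0.71 and Rpa2 with Slbp at 0.71. The genes nearest to the mean of the others were Pcna (0.84), Slbp (0.76), Mcm4 (0.75), Rpa2 (0.71) and Rrm2 (0.70). At the other end stood Orc1 (0.15), Ung (0.17), Gins4 (0.27), E2f1 (0.27) and Hells (0.33). Of these, Orc1, Ung and E2f1 were detected in fewer than 50% of progenitor cells, Gins4 in 93.2% and Hells in 99.2%. Pairs of Mcm2 to Mcm7 had a median r of 0.38, and Cdt1 with its inhibitor Gmnn had 0.38. The mean of the replication genes had an r of 0.11 with the mean of the 20 G2 and M phase genes, and its sign differed between column sets 1 (0.22) and 2 (-0.06).

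**Figure D5:**
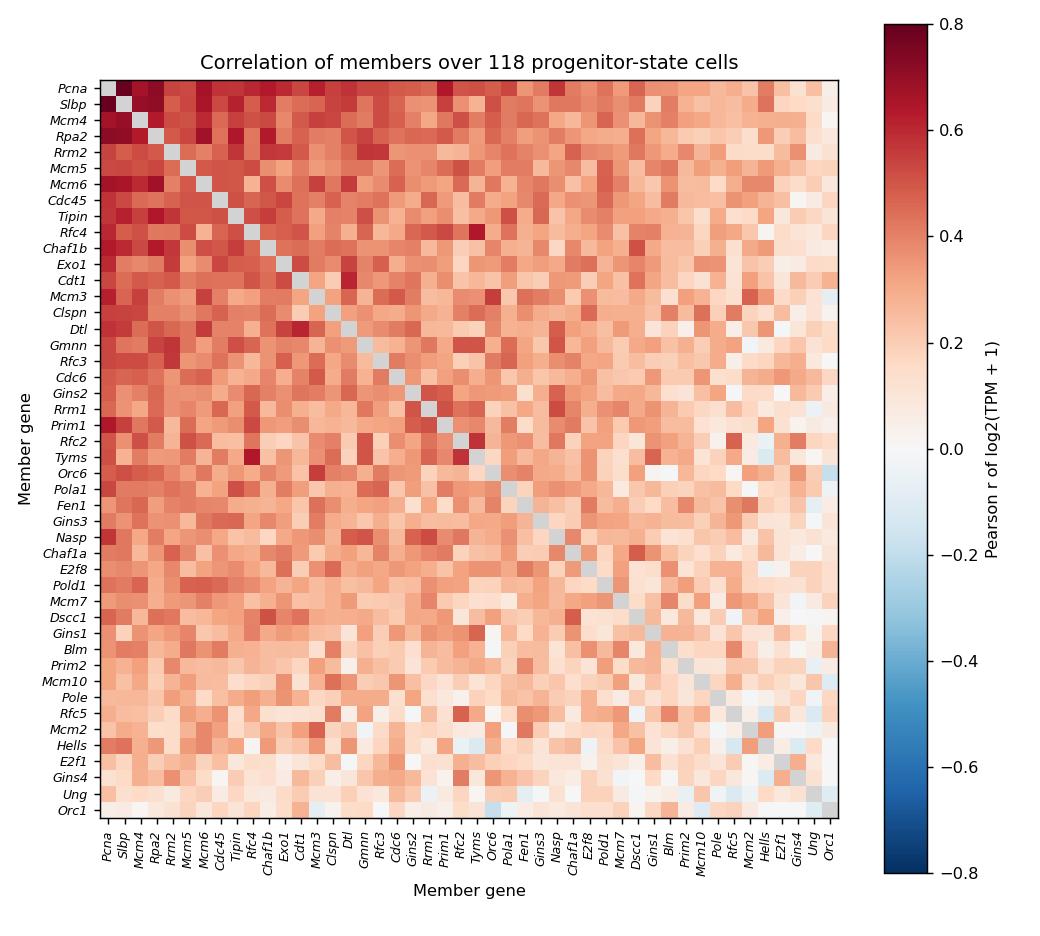
Colour gives Pearson r of log2(TPM + 1) between each pair of the 46 genes over the progenitor cells, with genes ordered by their r with the mean of the others. The strongest r, 0.79 for Pcna with Slbp and 0.71 for Rpa2 with each of them, are at the top left, and Orc1 and Ung at the far end are near 0 with most genes.

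Outside the group, the genes most like its mean were found among 6013 genes detected in at least 50% of progenitor cells. Pcna-ps2, the copy of Pcna, came first with r = 0.83. Among the genes that came next were Dut (0.69), which keeps uracil out of DNA, and Lig1 (0.68), which seals nicks. Ranbp1 (0.67), Paics (0.64), Atad2 (0.63), Pclaf (0.62) and Hist1h2ah (0.62) were also within the first 10. Pclaf, a protein that binds the clamp, had means of 443.01 TPM in progenitor, 255.3 in neuron and 29.8 in endoderm cells, and the histone gene Hist1h2ah 2862, 1364 and 466 TPM. These genes were ranked by the same cells and not selected for how they differ between states.

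A list of 60 further replication and S phase genes was compared in the same way. In neuron against progenitor cells 11 of the 60 were called lower (2.06% of all genes) and none higher, among them Cdca7 (fold 0.339) and Tk1 (0.402), with a median log2 fold of -0.78. None was called in proneural cells. In endoderm cells 35 were called lower (15.0% of all genes), with a median log2 fold of -1.25, and Pold4, the small subunit of polymerase delta, was called higher at 4.08-fold (30.2 against 7.41 TPM). Pold4 also had the highest neuron fold of the list, 2.41, without a call. Recql4 was listed at 0 in every endoderm cell and had a mean of 0.822 TPM in progenitor cells, so no fold is given. E2F letters were present in 32.3% of the promoter windows of this list and in 5.88% of those of the G2 and M phase list. For CCAAT these shares were 44.6% and 88.2%, against 37.4% of all windows.

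Of the 20 G2 and M phase genes, 8 were called lower in neuron cells and 18 in endoderm cells, and none in proneural cells, where 2.06%, 15.0% and 0.327% of all genes were. Cdc20, an activator of the anaphase promoting complex, had the lowest neuron fold, 0.412, followed by Bub1b (0.446) and Ccnb1 (0.450), and Hmmr (0.725) the highest. Of 18 regulators of G1 and cell cycle exit, 2 were called lower in neuron cells and 1 higher. Over all genes these shares were 2.06% and 7.92%. The genes called lower were Ccnd2 (fold 0.342) and Ccnd3 (0.346), cyclins that drive G1. In endoderm cells 7 of the 18 were called lower and 1 higher, against 15.0% and 11.4% of all genes. Their median log2 fold there was -1.03. The gene called higher in both states was Cdkn1a, an inhibitor of cyclin-dependent kinases. Its fold was 5.38 in neuron cells (133.6 against 24.8 TPM) and 10.1 in endoderm cells (250.99 TPM). Its relative Cdkn1c had means of 168.5 TPM in progenitor, 1248 in proneural, 939.7 in neuron and 82 in endoderm cells. In proneural cells, where no replication gene was called, Btg2 (3.31-fold) and Ccnd1 (5.87-fold) were called higher, against 1.20% of all genes.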

How the data were processed

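The authors deposited a table of 21973 genes by 464 single cells whose unit is not stated. Its decimal values were taken as TPM, since the submitters' processing notes name STAR, RSEM and mm10, without versions, and the values of a cell never sum to more than TPM allows. The sources used here do not name the annotation or any filter. Python 3.11.15, NumPy 2.4.6, pandas 2.3.3 and SciPy 1.17.1 were used. The table's total gives no depth, and no values were rescaled for the reported results. A total of 458 cells was kept, 224 in column set 1 and 234 in set 2, or 403 distinct cells. By 4 marker lists, 118 were progenitor, 83 proneural, 133 neuron and 70 endoderm cells, and 4 comparisons of states, the last added later, were made over the 13756 genes detected in at least 10 cells. Because cells of 1 sample are not replicates, a size rule replaced tests, and intervals cover counting error only. Except over distinct cells, the intervals count near-copy columns as separate cells. The replication genes, the lists and the rules were chosen with earlier results of these data known. The genes given in full are 16 chosen by role, the 5 with the lowest and the 5 with the highest neuron fold, and any called higher. In addition, 3 genes at each end of every other list were considered. Further genes were named after their values were seen. A total of 14 alternatives were planned and 2 added after seeing the data. The chromatin data were not analysed here. A few genes that the rules would name are not reported here.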

Additional observations from a re-analysis of the deposited data

How the results depend on the processing

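No paired analysis was possible because all cells belong to 1 group, the labels give no shared replicate numbers, and no result comes from a test. Of 16 other settings, the 13 lower calls of the neuron comparison became 6 in column set 2, 20 with state markers from 20 TPM, 23 and 24 with differences of mean log2(TPM + 1) and log2(TPM + 0.1), and 28 with at least 9 neuron markers. The share of all genes called lower, 2.06% before, was 0.769%, 3.15%, 2.77%, 3.78% and 4.00% in the same order. The 0 lower calls of proneural cells became 1 with markers from 20 TPM and 6 and 7 on the log scales. There, 0.691%, 0.749% and 1.29% of all genes were called lower, against 0.327% before. The 27 of endoderm cells became 10 in set 1 and 18 in set 2, where 10.6% and 9.64% of all genes were called lower, against 15.0% before. The 5 lower calls of endoderm against neuron cells became 2 over distinct cells and in cells with 5500 to 8000 genes, 0 in set 1, with markers from 20 TPM and with at least 9 neuron markers, 8 with markers from 5 TPM, 9 and 10 on the log scales, 3 with cells rescaled by 1860 broadly detected genes, and 1 without cells at or near a bound. The 1 higher call became 0 in set 2 and with at least 9 neuron markers. Progenitor cells made up 25.8% of kept cells, 30.4% of set 1 and 21.4% of set 2. Cells with both marker kinds made up 9.83%, and 7.14% in set 1, 6.33% with markers from 20 TPM and 7.02% within 5500 to 8000 genes. The median sum became 5654 TPM in proneural cells of set 2, 4741 TPM in progenitor cells after rescaling, 1898 TPM in cells with both marker kinds within 5500 to 8000 genes (with 30 genes detected) and 1620 TPM in cells with at least 9 neuron markers (27.5 detected). The cause of these shifts was not tested. Rescaling moved the median log2 fold of all genes from -0.25 to -0.01 in endoderm and from 0.06 to 0.14 in neuron cells, and 24 and 12 of the 46 were then called lower. Of all genes, 12.9% and 1.94% were called lower after rescaling. The mean kept its direction in each of the 16 settings for 43 of 46 genes in endoderm, 45 in neuron and 37 in proneural cells. Cdc45, Clspn, Dtl, E2f8, Exo1, Pole, Rfc4, Rrm1 and Rrm2 were called lower in endoderm cells in each setting. The setting without a filter on genes could not change a call or a direction, since all 46 passed that filter. The setting with at least 9 neuron markers left the endoderm, proneural and progenitor cells as they were, so it could not change those comparisons. Depth is unknown in TPM, so a gene listed at 0 in a cell is not shown to be absent.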
